A study of Mus musculus with 20 samples.

Results

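PPAR-alpha is a nuclear receptor that fatty acids activate and that, with its partner RXR, raises genes of fatty acid oxidation in the fasted liver. It binds direct repeats of the motif AGGTCA that are separated by a single base. The 10 genes described here are textbook targets of this receptor in mouse liver, chosen by name: Cyp4a10, Cyp4a14, Cyp4a31, Acot1, Acot2, Acot3, Acot4, Vnn1, Pdk4 and Pex11a. Of these, 9 have a probe set of their own on the array, among 18193 genes that do. Cyp4a10 is named only by a probe set that also names Cyp4a31, and no value is given for it. All 9 measured genes lay above the filter on low values and are among the 11720 genes tested.

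Livers came from male C57BL/6J mice, an inbred strain, labelled 8 weeks old. In the first group (MSXH) 10 mice ate a diet with 45 kcal% fat plus 0.05% of a maple syrup extract for 4 weeks. In the other (HFD) 10 mice ate the 45 kcal% fat diet alone. Both groups had been fasted for 16 h when livers were taken on day 30, and each mouse gave 1 array. Within a group, the arrays are labelled as biological replicates numbered 1 to 10. A low-fat diet and a lower extract dose are named in the study's design and were not analysed here, so neither group shows these genes without high-fat feeding or without fasting. The diets are compared to ask what the extract does to liver expression under high-fat feeding.

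The deposited levels are on a log2 scale but compressed: the median gene had an SD of 1.48e-05 over the 20 mice. Differences in level cannot be read as fold changes. Diet differences are therefore expressed in SDs, as Hedges' g (MSXH mean minus HFD mean over the pooled SD, with its small-sample correction). A mouse's level is likewise given as its distance in SDs from the gene's mean over the 20 mice. Levels of different probe sets are not set against each other. The 8 hepatocyte markers listed, among them Alb and Ttr, had mean levels from 11.42 to 14.74, well above the filter level of 6.507. In whole liver, fewer cells of a type and less RNA per cell cannot be told apart.

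The genes lie at 5 places in the mouse genome (GRCm38.p6). The Cyp4a genes are neighbours on chromosome 4, Cyp4a14 at chr4:115486200-115496158, Cyp4a10 at chr4:115518287-115533649 and Cyp4a31 at chr4:115563627-115579015. The 4 Acot genes adjoin on chromosome 12, Acot2 at chr12:83987861-83993877, Acot1 at chr12:84009502-84017670, Acot4 at chr12:84037254-84044723 and Acot3 at chr12:84052144-84060400. Vnn1 lies at chr10:23894688-23905344, Pdk4 at chr6:5483351-5496278 and Pex11a at chr7:79735957-79743131.

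Promoter windows of RefSeq (GRCm38.p6), 250 bases before to 50 after a transcript start, were given for 6 of the 10 genes: Acot1, Acot2, Acot3, Acot4, Pdk4 and Pex11a. The windows of Acot4 (chr12:84038129-84038428, plus strand) and Acot3 (chr12:84051894-84052193, plus strand, the first of its 2 listed starts) are shown because these genes varied together most closely across mice among the measured members, as described below. Both strands were searched for AGGTCA, for the full repeat AGGTCANAGGTCA and for GGNCANAGGTCA, which lacks the first letter of the repeat and leaves another open and was chosen after the windows were seen. Capitals mark the matches.
Acot4: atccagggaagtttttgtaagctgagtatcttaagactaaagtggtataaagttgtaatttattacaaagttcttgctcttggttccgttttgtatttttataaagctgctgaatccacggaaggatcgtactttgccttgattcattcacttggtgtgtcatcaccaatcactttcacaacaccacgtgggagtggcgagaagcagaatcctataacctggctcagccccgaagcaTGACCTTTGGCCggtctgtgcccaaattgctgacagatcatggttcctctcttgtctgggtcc
Acot3: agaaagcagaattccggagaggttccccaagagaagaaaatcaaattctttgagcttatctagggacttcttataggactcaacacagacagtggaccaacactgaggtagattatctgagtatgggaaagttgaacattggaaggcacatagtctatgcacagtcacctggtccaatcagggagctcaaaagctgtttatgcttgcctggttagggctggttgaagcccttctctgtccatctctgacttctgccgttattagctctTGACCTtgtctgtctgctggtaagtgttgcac
The Acot4 window holds TGACCTTTGGCC from position -13, a match to GGNCANAGGTCA on the minus strand that includes AGGTCA. The whole Acot4 window lies within the gene's span given above, so position -13 is counted from a transcript start inside that span. GGNCANAGGTCA occurs in 0.207% of the 32851 windows in the table. The Acot3 window holds AGGTCA alone, on the minus strand, from position 19 after the start, and 16.3% of windows hold it. The full repeat was found in 0 of the 6 genes' windows and in 0.0396% of all windows. These are matches of letters and not measured binding sites. The windows of Acot1, Acot2, Pdk4 and Pex11a held none of the motifs searched for. Acot4 and Acot3, whose windows are shown, were thus the only ones of the 6 genes with a match.

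No difference between the diets was detected for the 9 genes. With limma, 0 of 9 passed an adjusted p of 0.05 (adjusted p = 0.9998 for each), as did 0 of all 11720 genes tested, which is 0% of them. At an unadjusted p under 0.05 there were 0 of the 9 genes and 425 of all genes (3.63%). A Wilcoxon rank-sum test also gave 0 genes past the threshold, with 399 at an unadjusted p under 0.05. Of the 9 genes, 3 had a positive g and 6 a negative one, with a median of -0.0487, beside 5788 positive and 5932 negative among all genes and a median of -0.00724. The widest differences among the 9 were g = 0.62 for Pex11a (95% interval -0.277 to 1.52) and -0.451 for Cyp4a31 (-1.34 to 0.437). The intervals of all 9 include 0.

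**Figure D1:**
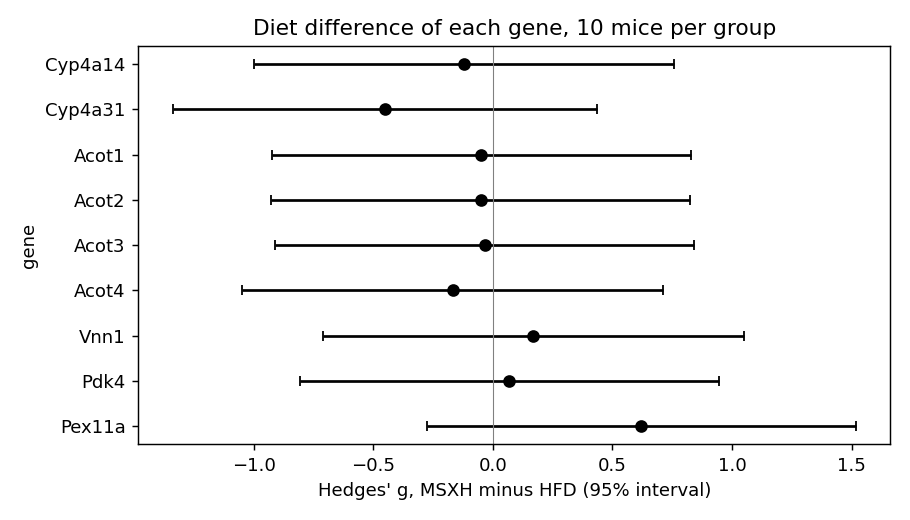
Diet difference of each gene as Hedges' g (horizontal axis, MSXH minus HFD, in pooled SDs), with points for the estimate and bars for the 95% interval, 10 mice per group. Every interval crosses 0, and the estimates run from -0.451 for Cyp4a31 to 0.62 for Pex11a.

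The Cyp4a genes encode microsomal cytochrome P450 enzymes that hydroxylate fatty acids at the omega end. The lowest, median and highest levels of Cyp4a14 were 13.1883, 13.1886 and 13.1888 in MSXH mice, against 13.1882, 13.1887 and 13.1888 in HFD mice (g = -0.121, 95% interval -0.999 to 0.756). The groups overlapped almost completely, with 4 of 10 MSXH mice above the HFD median. Those of Cyp4a31 were 10.0643, 10.0655 and 10.0670 in MSXH mice, against 10.0638, 10.0660 and 10.0678 in HFD mice. Both its lowest and its highest mouse were in the HFD group (replicates 3 and 10), and the HFD median was exceeded by 3 of 10 MSXH mice. The other Cyp4a31 probe set gave g = -0.0826 (95% interval -0.96 to 0.794).

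The Acot genes encode thioesterases that cut fatty acyl-CoA into fatty acid and coenzyme A: Acot1 in the cytosol, Acot2 in mitochondria and Acot3 and Acot4 in peroxisomes. The lowest, median and highest levels of Acot1 were 10.2710, 10.2725 and 10.2749 in MSXH mice, against 10.2709, 10.2727 and 10.2747 in HFD mice (g = -0.0487). Those of Acot2 were 8.7855, 8.7869 and 8.7905 in MSXH mice, against 8.7850, 8.7876 and 8.7923 in HFD mice (g = -0.0516). The groups overlapped for both genes, and the highest HFD mouse was replicate 4, which lay above every MSXH mouse for Acot2. Acot3 had 6.8150, 6.8715 and 6.9107 in MSXH mice, against 6.7993, 6.8616 and 6.9771 in HFD mice (g = -0.0341, 95% interval -0.911 to 0.842). Acot4 had 7.3780, 7.3801 and 7.3813 in MSXH mice, against 7.3765, 7.3801 and 7.3840 in HFD mice (g = -0.167). For both genes the MSXH mice lay within the HFD range, whose ends were the same 2 mice, replicate 9 at the bottom and replicate 4 at the top.

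Vnn1 encodes vanin-1, a pantetheinase that releases pantothenic acid and cysteamine. Its lowest, median and highest levels were 11.7093, 11.7109 and 11.7118 in MSXH mice, against 11.7090, 11.7105 and 11.7122 in HFD mice (g = 0.167, 95% interval -0.711 to 1.05). The MSXH mice again lay within the HFD range, and 7 of 10 were above the HFD median. On its other probe set g was -0.0426, so the sign is not settled. Pdk4, a kinase that switches off pyruvate dehydrogenase and so spares glucose in fasting, had 7.7622, 7.7788 and 7.8119 in MSXH mice, against 7.7596, 7.7827 and 7.8080 in HFD mice (g = 0.0689). Pex11a, which takes part in the division of peroxisomes, had 10.9588, 10.9589 and 10.9594 in MSXH mice, against 10.9584, 10.9588 and 10.9593 in HFD mice. The groups overlapped for both genes. The HFD median of Pex11a was exceeded by 8 of 10 MSXH mice, and its other probe set had g = 0.414 (95% interval -0.472 to 1.3).

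**Figure D2:**
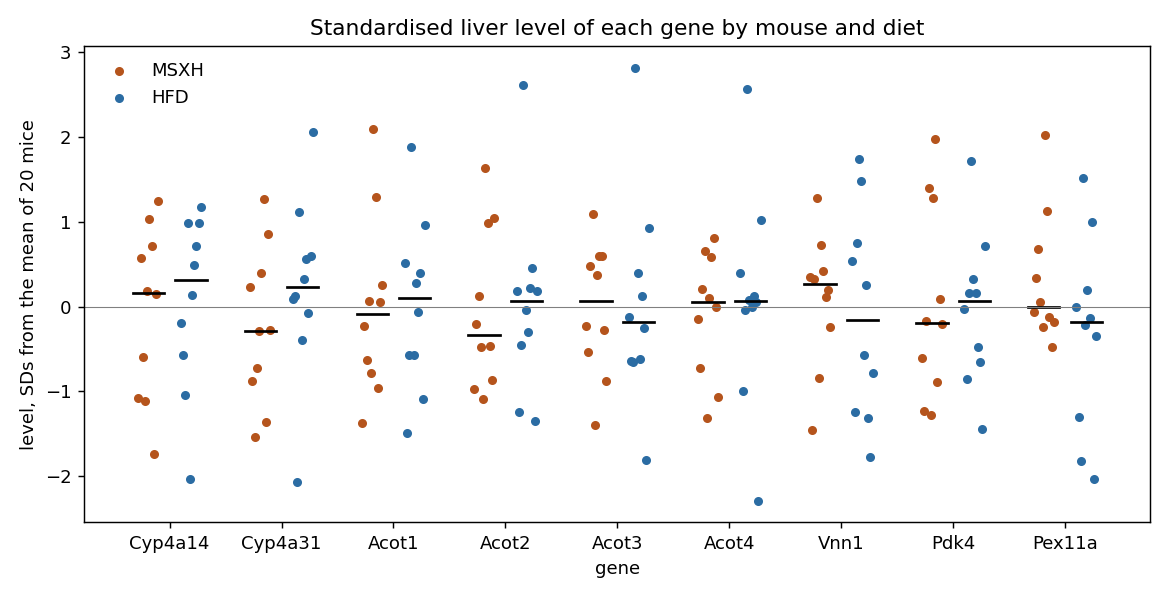
Level of each gene in each mouse, in SDs from the gene's mean over the 20 mice (vertical axis), with MSXH mice left and HFD mice right of each gene's position and black lines at group medians. The diets overlap for every gene, and a single HFD mouse stands highest for Acot2, Acot3 and Acot4, at 2.62, 2.82 and 2.57 SDs.

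No difference in spread between the diets was detected for any of the 9 genes (limma on absolute deviations from the group median, adjusted p = 0.9995 for each). Among all genes 1 of 11720 passed (0.00853%), Pwwp2b, named because it was the one that passed (adjusted p = 0.0246). The SD in MSXH mice over that in HFD mice ran from 0.586 for Acot4 to 1.3 for Pdk4. Vnn1 had the smallest unadjusted p of the 9 (0.0482, ratio 0.637). At an unadjusted p under 0.05 were 3.12% of all genes. On the deposited scale all 9 genes were in the top 10% of the genes tested by SD over the 20 mice. Acot3 ranked 18th with an SD of 0.0384, Pdk4 46th with 0.0153, and Cyp4a14 ranked lowest of the 9, 1010th, with 0.000193. These are ranks of the compressed values.

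Individual mice stood high or low for many of the genes at once. HFD replicate 4 was above the mean for 9 of 9 genes, with a mean of 1.89 SDs, and was the highest HFD mouse for the 4 Acot genes, Vnn1, Pdk4 and Pex11a. MSXH replicates 6 and 7 were also above the mean for 9 of 9, averaging 1.08 and 1 SDs. HFD replicate 9 had the lowest mean, -1.13 SDs, and was the lowest HFD mouse for Acot2, Acot3, Acot4, Vnn1, Pdk4 and Pex11a. The same mouse was 0.99 SDs above the mean for Cyp4a14 and 0.6 above it for Cyp4a31. The Cyp4a genes thus did not follow the others in that liver.

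Across the 20 mice the Acot genes, Vnn1, Pdk4 and Pex11a varied together, whereas Cyp4a14 followed some of them and not others. Without HFD replicates 4 and 9 the correlations among the first 7 of these genes were lower, as described below. Pearson correlations were computed for the 36 pairs of the 9 genes, with two-sided permutation p-values adjusted over the 36. Of these, 21 passed, all positive. An r of 0.5 or more was found in 20 of the 36 pairs, beside 5.05% of all pairs of genes tested, and the median r was 0.57 beside 0.01 for all gene pairs. All 9 genes were in the top 10% by SD, and a background of genes with SDs like theirs was not computed. Among the 21 pairs of Acot1, Acot2, Acot3, Acot4, Vnn1, Pdk4 and Pex11a, r ran from 0.36 to 0.94 and 18 passed. Of the 14 pairs of Cyp4a14 or Cyp4a31 with these 7 genes, 2 passed, Acot1 with each, and r ran from -0.39 to 0.59. The difference between these sets of pairs was not tested.

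**Figure D3:**
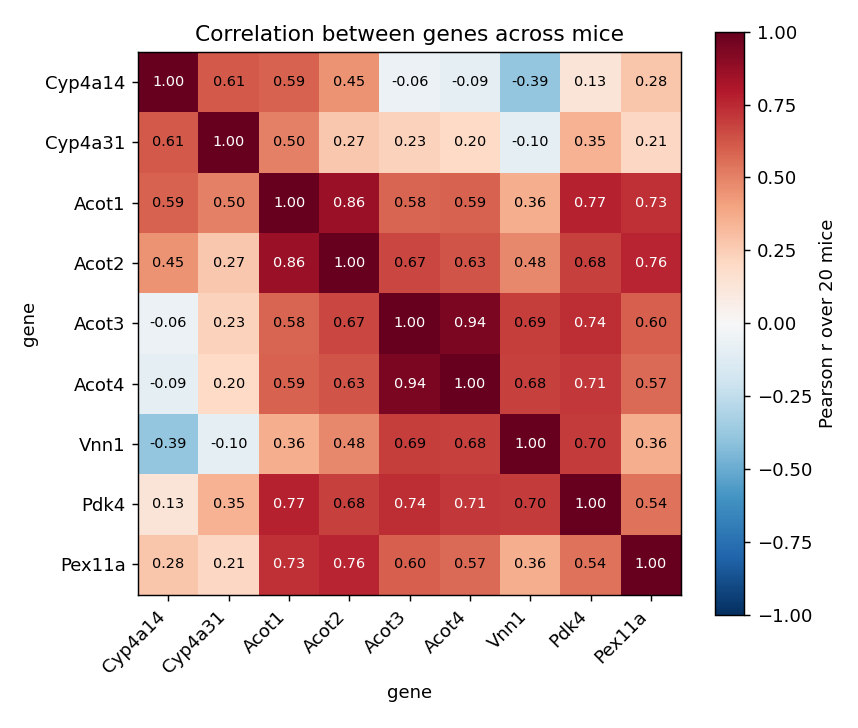
Pearson r over the 20 mice for each pair of the 9 genes (both axes), on a colour scale from -1 to 1 with the value in each cell. The block of 7 genes at the lower right holds values from 0.36 to 0.94, while the row of Cyp4a14 runs from -0.39 with Vnn1 to 0.61 with Cyp4a31.

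Acot3 and Acot4 were the closest pair (r = 0.94, Spearman's rho = 0.95, permutation p = 1e-05 for both, the smallest that 100000 permutations can give, adjusted p = 0.00018). Leaving out the 2 mice whose Acot3 level was farthest from its median gave r = 0.88, and r was 0.95 in MSXH mice and 0.94 in HFD mice. Acot1 and Acot2 followed (r = 0.86, rho = 0.82, adjusted permutation p = 0.00018), with r = 0.76 once the 2 mice most extreme in Acot1 were left out. These neighbours are similar in sequence, and a probe set on the array names both Acot1 and Acot2, while the Acot3 probe set is of the kind that can match several transcripts. How far each probe set picks up the other gene's transcript was not tested. The other probe set of Acot4 had r = 0.93 with Acot3, and that of Acot2 had r = 0.94 with Acot1 (adjusted permutation p = 0.0002 for both, over 40 such pairs).

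Pdk4 correlated with Acot1 at r = 0.77 (rho = 0.72, adjusted permutation p = 0.00072), with Acot3 at 0.74 (rho = 0.64, adjusted p = 0.00072) and with Vnn1 at 0.7 (rho = 0.75, adjusted p = 0.0022). With the 2 mice most extreme in Acot1, Acot3 or Vnn1 left out, these were 0.68, 0.63 and 0.61. Pex11a was closest to Acot2 (r = 0.76, rho = 0.67, adjusted permutation p = 0.00072, 0.64 without 2 mice). Vnn1 correlated with Acot3 (r = 0.69) and Acot4 (r = 0.68), but its pairs with Acot1 (r = 0.36, adjusted permutation p = 0.164), Acot2 (r = 0.48, adjusted p = 0.0511) and Pex11a (r = 0.36, adjusted p = 0.165) did not pass. After quantile normalization the Vnn1 pairs with Acot3 (r = 0.26, adjusted permutation p = 0.405), Acot4 (0.21, adjusted p = 0.474) and Pdk4 (0.35, adjusted p = 0.212) did not pass. The genes with 2 probe sets gave a measure of how well the levels of the mice repeat. Between the 2, r was 0.81 for Cyp4a31, 0.92 for Pex11a, 0.96 for Acot2 and for Acot4 and 0.98 for Vnn1. By rho, which compares the ordering of mice, these were 0.82, 0.88, 0.9, 0.93 and 0.98.

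The count of pairs depended on HFD replicate 4. Without it 13 of the 36 pairs passed positive rather than 21, and 1 passed negative, Cyp4a14 with Vnn1 (r = -0.55, adjusted permutation p = 0.0403). Without both HFD replicate 4 and HFD replicate 9, the mice with the highest and lowest mean of the 9 genes, 10 pairs passed. Acot3 with Acot4 (r = 0.88) and Acot1 with Acot2 (r = 0.82) were among them, as were Pdk4 with Acot1, Acot3, Acot4 and Vnn1. Pex11a passed with Acot1 and Acot2. Cyp4a14 passed with Acot1 (r = 0.67, adjusted permutation p = 0.015) and with Cyp4a31 (r = 0.57, adjusted p = 0.0451). Among the 21 pairs without a Cyp4a gene, r then ran from 0.05 for Vnn1 with Pex11a to 0.88. Acot2 with Acot4 had r = 0.26 and did not pass. Within diets, r of the 21 pairs ran from 0.1 to 0.95 in MSXH mice (median 0.58) and from 0.38 to 0.94 in HFD mice (median 0.81). Acot2 with Acot4 had r = 0.1 in MSXH mice and 0.92 in HFD mice. Whether such values differ between the diets was not tested, and both extreme mice are in the HFD group.

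Cyp4a14 correlated with Cyp4a31 (r = 0.61, rho = 0.59, adjusted permutation p = 0.0115, 0.59 without 2 mice) and with Acot1 (r = 0.59, rho = 0.55, adjusted p = 0.0136, 0.58 without 2 mice). With the other probe set of Cyp4a31 its r was 0.4 (adjusted permutation p = 0.111), so the correlation of these neighbours passed on 1 of 2 probe sets. Whether the Cyp4a probe sets pick up each other's transcripts was not tested. After quantile normalization the pairs of Cyp4a14 with Cyp4a31 and with Acot1 no longer passed (r = 0.44 and adjusted permutation p = 0.108 for both). The other Cyp4a31 probe set passed with 4 of the 7 genes rather than 1: Pdk4 (r = 0.66, adjusted permutation p = 0.00392), Acot1 (0.64, adjusted p = 0.00596), Acot4 (0.57, adjusted p = 0.0126) and Acot3 (0.54, adjusted p = 0.0229). The count of Cyp4a pairs that passed thus depended on the probe set. With Acot3, Acot4 and Pdk4, Cyp4a14 had r = -0.06, -0.09 and 0.13, and with Vnn1 -0.39 (rho = -0.36, adjusted permutation p = 0.127).

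**Figure D4:**
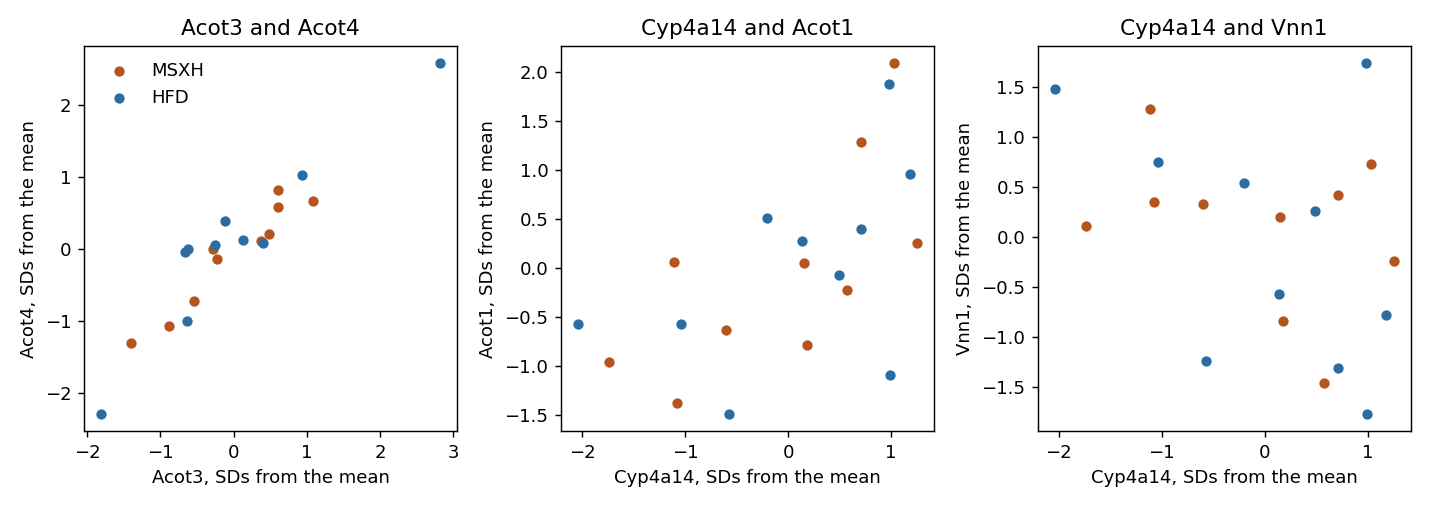
Levels of 3 pairs of genes in each mouse, in SDs from each gene's mean, with MSXH and HFD mice in different colours. From left to right are Acot3 with Acot4 (r = 0.94), Cyp4a14 with Acot1 (r = 0.59) and Cyp4a14 with Vnn1 (r = -0.39), and the points of the first lie close to a line, with HFD replicate 4 at its top.

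Cyp4a14 was also set against Mt1, a zinc-binding metallothionein, and Hsd3b5, a male-biased steroid dehydrogenase, which ranked 1st and 2nd of all tested genes by SD and were picked after that was known. Cyp4a14 was high in livers with high Mt1 (r = 0.76, rho = 0.77, adjusted permutation p = 0.009, 0.7 without 2 mice) and low Hsd3b5 (r = -0.84, rho = -0.9, adjusted p = 0.00135, -0.84 without 2 mice). Both held within diets, at r = 0.7 in MSXH mice and 0.82 in HFD mice for Mt1, and at -0.81 in MSXH mice and -0.88 in HFD mice for Hsd3b5. None of the other 8 genes passed with either. Vnn1 had r = -0.62 with Mt1 (adjusted permutation p = 0.11), and Acot3 and Pdk4 had -0.27 and -0.3. In MSXH mice alone Acot3 and Acot4 had r = -0.75 and -0.76 with Mt1, against -0.02 and -0.14 in HFD mice. With Hsd3b5 they had 0.62 and 0.71 in MSXH mice, against -0.03 and 0.11 in HFD mice. These values within diets were not tested.

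The correlations of the 9 genes with Mt1 and Hsd3b5 over the 20 mice were part of a set of 135. The others were with 3 array measures and the mean standardised level of 10 cell type marker lists. All were adjusted together, and 3 passed. The remaining one was Cyp4a14 with stellate cell markers (r = -0.74, rho = -0.79, adjusted permutation p = 0.009, -0.64 without 2 mice). Of the 6 markers 5 lay above the filter. All 6 had a negative r with Cyp4a14, from -0.76 for Lrat to -0.1 for Des. Their summed levels ran from 48.76 to 48.89 in MSXH mice and from 48.76 to 48.86 in HFD mice. The part of these cells in the Cyp4a14 result was not tested. The 3' minus 5' signals of the actin and Gapdh controls, signs of RNA integrity, had r from -0.32 to 0.45 with the 9 genes, and array medians from -0.42 to 0.15, with none passing. The other marker lists had r from -0.63 (red blood cells with Cyp4a14, adjusted permutation p = 0.11) to 0.52 (Kupffer cells with Vnn1). By rho the pair of Cyp4a14 with red blood cell markers passed (rho = -0.68, adjusted permutation p = 0.0415). All 6 Kupffer cell markers also had a negative r with Cyp4a14, from -0.64 for Cd5l to -0.25 for Marco. As a list they had r = -0.48 (adjusted permutation p = 0.386).

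Known partners of the pathway were then set against the 9 genes. The 6 used were Ppara, the receptor itself, Fgf21, a fasting hormone, Angptl4, an inhibitor of lipoprotein lipase, Cpt1a, the gate of mitochondrial fatty acid import, Plin2, a lipid droplet coat protein, and Ehhadh, a peroxisomal oxidation enzyme. Of the 54 pairs, 15 passed, all positive. Ehhadh followed Acot1 (r = 0.8, rho = 0.78, adjusted permutation p = 0.00108, 0.73 without 2 mice) and Acot2 (r = 0.74, rho = 0.8, adjusted p = 0.00486, 0.65 without 2 mice). Angptl4 passed with 5 genes, with r up to 0.69 for Acot1, but with 0 when the most variable probe set of each gene was used, where r with Acot1 was 0.1. Plin2 passed with 4 and had its highest r, 0.67, with Vnn1. By Spearman's rho Plin2 passed with 1, Vnn1 (rho = 0.59), and without HFD replicates 4 and 9 with 0. Ppara had r from 0.01 for Cyp4a14 to 0.61 for Acot4 and passed with 2 genes, Acot4 and Pdk4, but by rho with 0 (rho = 0.47 and 0.43). Of the 9 pairs with Cpt1a 0 passed. With the most variable probe set of each gene 1 passed, Cyp4a31 (r = 0.56, adjusted permutation p = 0.047). The count of 15 partner pairs is less settled than that among the 9 genes. Leaving out 1 mouse moved it between 5 (without HFD replicate 2, or without MSXH replicate 2) and 18. It was 6 without HFD replicate 9, 8 without MSXH replicate 9 and 9 without MSXH replicate 6 or 7.

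The genes most like each of the 9 were found by Pearson r over the 20 mice among the 11711 other genes tested. For Pdk4 they were Slc22a5, the plasma membrane carnitine transporter (r = 0.87), and Nceh1, a neutral cholesterol ester hydrolase (0.82). Nceh1 was also among the closest 2 for Acot3 (r = 0.81) and Vnn1 (0.84, after Gmfb at 0.85), and Rab30, a small GTPase, for Acot3 (0.8) and Acot4 (0.85, before Irak2 at 0.84). The closest to Acot1 were Ywhag (0.86) and P4ha2 (0.85), and to Acot2 Gtf2h4 (0.85) and Ddhd2, a lipase (0.83). Ddhd2 also followed Pex11a (0.78, after Tdrp at 0.81). Cyp4a14 stood beside Grn, which encodes progranulin, and Kctd15 (both r = 0.91), and had 55 genes at r = 0.8 or more. The other members had from 1 to 7 such genes, 6 of them for Cyp4a31, led by Rgs1 and Cln8 (both 0.85). For the mean of the 9 genes the closest 8 were Slc22a5 (r = 0.9), Nanp (0.81), Bace1 (0.78), Nceh1 (0.78), Ddhd2 (0.76), Mmadhc (0.74), Tor3a (0.74) and Tor1b (0.72). These are descriptions with no test, since each is the highest of 11711 values.

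Among 7 lists of other genes of the pathway, with limma 0 genes passed in any list and 2 had an unadjusted p under 0.05, both among other Cyp4 genes. Over all 11720 genes tested, 0 passed and 425 (3.63%) had an unadjusted p under 0.05 by the same test. Cyp4f16 had g = 1.01 (95% interval 0.0782 to 1.94, unadjusted p = 0.0292) and Cyp4v3 -0.971 (-1.9 to -0.0443, unadjusted p = 0.0326), with an adjusted p of 0.9998 for both. PPAR-alpha with its partners and co-regulators had 7 of 10 genes positive (median g = 0.08), with Ppara itself at -0.029. Other acyl-CoA thioesterases had 6 of 9 positive (median 0.32), other Pdk, Vnn and Pex11 genes 3 of 5 (median 0.104) and other Cyp4 genes 4 of 7 (median 0.137). Genes of peroxisomal oxidation and import had 9 of 20 positive (median -0.0467), with Ehhadh at -0.272. Mitochondrial oxidation and ketogenesis had 4 of 19 positive (median -0.273), with Cpt1a at 0.053. Lipid droplet and secreted targets had 14 of 26 positive (median 0.0528), with Plin2 at 0.347, Angptl4 at 0.0613 and Fgf21 at -0.0491.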

How the data were processed

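The authors deposited a table of 45101 probe sets by 20 arrays, whose values were taken as log2 levels because the highest, 14.96, exceeds the natural log (11.09) and log10 (4.82) of the largest 16-bit scanner value. Per the labels' protocols, biotin-labelled RNA copies were made from 200 ng of total RNA with a 3' IVT kit. How they summarised probes into values is not given in the sources used here. Medians of the arrays spanned 4.37e-05, and 49 probe sets spanned over 0.1. The number of arrays limits the precision.

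A gene was measured by the probe set that names it alone in the platform annotation (34945 of 45037 non-control probe sets; 932 name several genes, 9160 none), taking the highest mean over the 20 arrays. Genes at or above the median of all probe sets were tested. The diet and spread tests ran in R 4.3.3 with limma 3.58.1 (linear fit, empirical Bayes, Benjamini-Hochberg). Correlations used 100000 permutations in Python 3.11.15 and numpy 2.4.6. Over the members, the partners, Mt1 and Hsd3b5, the largest gap in a gene's values was 0.37 of its range (Acot3). No test for separate clusters was run. Named genes were the members, up to 2 genes per list at an unadjusted p under 0.05, the partners and the closest genes by r. The members and lists were chosen with earlier results of these data known. Mt1, Hsd3b5, the array measures and the marker correlations, the comparison of other probe sets and the Cpt1a test were added after values were seen. The tests were checked on simulated data. There the diet and correlation tests found nearly all of the changes put in, and the spread test found few. A lack of calls in spread therefore says little. The sizes of the changes put in are not given here. The check thus does not show whether diet differences or correlations as small as those of the members would be found. Figures were drawn with matplotlib 3.10.9.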

Additional observations from a re-analysis of the deposited data

Results flagged for a closer look

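Acot2 in HFD mice had 1 mouse far from the others: replicate 4 was high, with a gap to the next mouse of 0.543 of the group's range. Of 38 sets of 10 mice examined, 1 was so marked, where chance gives about 1.9. The same mouse was the highest HFD mouse for Acot1, Acot3, Acot4, Vnn1, Pdk4 and Pex11a, where its gap was smaller than the limit of 0.466.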

How the results depend on the processing

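No member passed in the diet or the spread comparison under any alternative run, including each of 20 fits without 1 mouse (8 of the 9 could be tested after quantile normalization and with the 75th percentile filter). In the diet comparison 0 genes passed in all of these, and the 425 genes at an unadjusted p under 0.05 became 140 with all array medians made equal, 128 with quantile normalization (11207 genes), 780 with no filter (18193) and 197 with the 75th percentile filter (6925), and 318 to 598 without 1 mouse. In the spread comparison the 1 gene became 0 with equal medians and with the replicate number as a block, 4 with quantile normalization and 0 to 1 without 1 mouse. Its 366 genes at an unadjusted p under 0.05 became 208 with equal medians, 596 with deviations from the group mean, 602 with no filter and 257 to 340 without 1 mouse. With equal medians and with deviations from the group mean the genes tested were still 11720. The cause of these changes in count was not tested.

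Signs of g near 0 were not stable: Acot1 had 0.037 with quantile normalization and Vnn1 -0.0426 with the most variable probe set. Without 1 mouse g ran from -0.383 to 0.0562 for Cyp4a14, -0.302 to 0.156 for Acot1, -0.238 to 0.27 for Acot2, -0.241 to 0.338 for Acot3, -0.493 to 0.111 for Acot4, -0.00789 to 0.388 for Vnn1 and -0.145 to 0.269 for Pdk4. It kept its sign for Cyp4a31 (-0.824 to -0.279) and Pex11a (0.466 to 0.901).

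Of 36 member pairs, 21 passed. The number was 15 by Spearman's rho, 23 with equal medians, 23 with the most variable probe set, 21 with group means removed and 12 of 28 with quantile normalization, which leaves 8 pairs without a value because Pex11a becomes constant. It was 13 to 23 without 1 mouse and 10 without both HFD replicates 4 and 9, an alternative chosen after seeing the data. Of 54 partner pairs, 15 passed. By rho there were 10, with the most variable probe set 12 and with group means removed 10. There were 5 without HFD replicates 4 and 9 and 5 to 18 without 1 mouse. With quantile normalization 0 of 16 passed, and these were pairs with Ppara or Fgf21 only. Pairs with Ehhadh, Angptl4, Plin2 and Cpt1a had no value there, so quantile normalization says nothing about them. Acot4 with Ppara turned to r = -0.11 with quantile normalization.

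The labels do not pair mice by number, and same-numbered mice correlated from -0.133 to 0.37 in their deviations (3 of 10 pairs over 0.1). With the replicate block 0 genes passed in the diet comparison, 501 had an unadjusted p under 0.05 and 0 passed in the spread comparison.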

Other observations

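Cpt1a was the partner with 0 of 9 correlations positive in both diets, and it was examined further after that was seen. On the probe set used, its r with them was negative for 9 of 9 genes in MSXH mice and positive for 9 of 9 in HFD mice. With Acot1 it was -0.71 in MSXH mice and 0.53 in HFD mice, and with Pdk4 -0.43 in MSXH mice and 0.65 in HFD mice. Permuting the diet labels gave p = 0.0249 for the difference in Acot1 and p = 0.0106 in Pdk4 (adjusted p = 0.224 and 0.17 over 27 such tests), so neither passed. On the other 2 probe sets of Cpt1a, r with Acot1 was 0.2 in MSXH mice and 0.22 in HFD mice on one, and 0.24 in MSXH mice and 0.13 in HFD mice on the other. With Acot3 the signs were opposite on all 3 probe sets (-0.19, -0.36 and -0.23 in MSXH mice, against 0.7, 0.18 and 0.23 in HFD mice), as they were with Acot4 (-0.07, -0.28 and -0.12 in MSXH mice, against 0.63, 0.13 and 0.15 in HFD mice). None of the 27 differences passed after adjustment. Cyp4a31 had r of 0.79 and 0.82 with those 2 probe sets in MSXH mice, and 0.71 and 0.43 in HFD mice.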
